A study of Mus musculus with 18 samples.

Results

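The 131 mouse genes for potassium and calcium channels and their partners were followed through dimethylation of lysine 79 of histone H3 (H3K79me2) in naive, Th1 and Th2 cells. They were chosen by name and not by a cut on a measured value, but with earlier results of these data known. A gene was taken if it was protein-coding in the RefSeq table and its symbol began with Kcn or Cacn or was Orai1, Orai2, Orai3, Stim1, Stim2, Itpr1, Itpr2, Itpr3, Ryr1, Ryr2 or Ryr3. They are 131 of the 21631 protein-coding genes on chromosomes 1 to 19 and X of build GRCm38.p6, the assembly of mm10. Chromatin immunoprecipitation followed by sequencing located H3K79me2 in a study of DOT1L, the methyltransferase that sets this mark along transcribed genes. Each cell type had 3 libraries with a list of broad peaks each, and 9 inputs had no list. Naive cells were sorted as CD44- CD62L+ cells straight from the spleens of WT mice. Th1 cells were cultured for 4 days with IL-12, IL-2 and an antibody to IL-4 while stimulated through CD3 and CD28, and were sorted as YFP+ cells of an IFNg-YFP reporter. Th2 cells had the same stimulation for 4 days with IL-4, IL-2 and anti-IFNg, and were sorted by IL-4 AmCyan or IL-13 dsRed (the 4C13R reporter). All samples carried the genotype label WT, all cells were fixed in formaldehyde, and the labels name neither strain nor age. Naive and polarised cells thus differed in culture, in stimulation and in the mice they came from, and these cannot be told apart. Th1 and Th2 cells differed in cytokines, in the added antibody, in reporter and in sort, which cannot be told apart either. Nothing in the labels tells if libraries of one group stem from different mice or cultures. The p-values therefore measure the spread between libraries alone, which may be technical.

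A T cell that meets antigen makes inositol trisphosphate, which opens the Itpr channels of the endoplasmic reticulum and lets stored calcium out. Stim1 and Stim2 sense the emptied store and open Orai channels in the plasma membrane, and the calcium that enters drives calcineurin, NFAT and cytokine genes. Potassium leaving through Kcna3 and Kcnn4 keeps the membrane negative, so that calcium goes on flowing in. Most other genes of these families are known from neurons, muscle, heart and kidney.

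The value for a gene was the percent of its annotated length under merged peaks in a library, and 1 percentage point is called a point here. A gene is called marked in a group when at least 50% of it was covered in at least 2 of the 3 libraries. The naive lists covered 276 to 285 Mb against 217 to 240 Mb in Th1 and 232 to 250 Mb in Th2. Within Th1, replicate 1 had 240 Mb, against 222 Mb in replicate 2 and 217 Mb in replicate 3. All 10 T cell genes checked (among them Cd3e, Cd4 and Lck) had a mean of at least 50% in each group. Tbx21, Ifng, Cxcr3, Il4, Il13 and Il5 were at 0 in the naive libraries. Ifng was at 100% in every Th1 library and at 2.77% on average in Th2. Il4 was at 100% in every Th2 library and at 47.15, 0 and 21.83% in the Th1 libraries (22.99% on average). Tbx21 was covered in both, at 100% in Th1 and 99.9% in Th2 on average. Cd8a and Cd8b1 were covered over 100% in every naive library and summed to at most 11.9% in Th1 and 39.2% in Th2. Among markers of B cells, Blk, Pax5 and Ms4a1 were at 0 in all groups, Cd79a was at 100% in all, and Cd79b had 54.3% on average in naive cells and 0 in the others. Lyz2, Csf1r, Cd14 and Adgre1 of myeloid cells were at 0 throughout, and Itgam was highest in naive cells at 9.32%. Of 3 NK cell genes Ncr1 was at 0 in all groups, and Tyrobp had 100% in naive cells, 44.97% in Th1 and 92.98% in Th2 cells. Of 7 neuron and heart genes, where many of these channels are used, 6 were at 0 in all groups and the 7 summed to at most 2.86%. The part of cells with these markers in the differences below was not tested, and values at matched covered length are given where they end or add a call. In bulk samples, fewer cells of a type and less of the mark per cell cannot be told apart.

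Most channel genes carried no H3K79me2 domain. No peak touched 76 of the 131 genes (58.0%) in any library, against 43.8% of all genes. Another 17 had a peak but stayed under 5% in every library, and 38 reached at least 5% in at least 1. The marked genes were 19 in naive cells (14.5%, against 33.1% of all genes), 11 in Th1 (8.4%, against 26.5%) and 14 in Th2 (10.7%, against 26.8%). In all, 23 of the 131 genes were marked somewhere, against 7653 of all 21631 genes. Marked in every group were 9 of the 131, against 5124 of all genes. These 9 were Kcna3, Kcnn4, Kcnk5, Kcnab2, Itpr1, Orai1, Orai3, Stim1 and Stim2. Naive cells alone had 8 marked genes, Th1 cells alone had Kcnj8, and Th2 cells alone had Kcnq5 and Kcnmb1. Genes marked in 1 group alone were not counted over all genes, so no reading is drawn from these numbers.

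**Figure D1:**
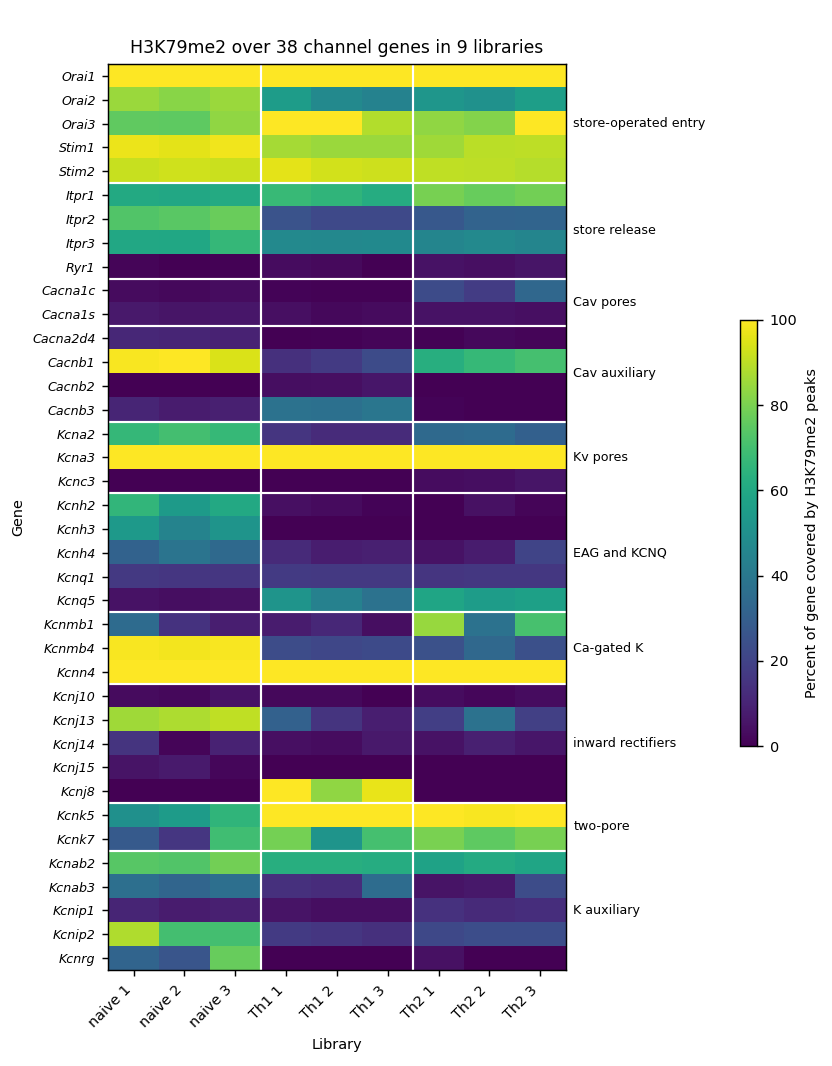
Percent of the gene covered by H3K79me2 peaks (colour, 0 to 100%) for the 38 channel genes with at least 5% in a library (rows, by family) in 9 libraries (columns). Orai1, Kcna3 and Kcnn4 are at 100% in all 9, and the potassium channel rows include genes covered in naive libraries alone (Kcnh3), Th1 libraries alone (Kcnj8) or far more in polarised cells (Kcnq5).

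The families split sharply. All 5 genes of store-operated entry and 3 of the 6 release channels were marked in naive cells, while none of the 10 pore genes of voltage-gated calcium channels was marked in any group. Of 27 voltage-gated Kv genes, 23 had no peak and 2, Kcna2 and Kcna3, were marked in naive cells. No peak in any library was found on 10 of 16 calcium channel auxiliary genes, 11 of 14 tandem-pore genes, 9 of 15 inward rectifiers, 8 of 12 calcium- or sodium-gated potassium channel genes, 6 of 13 in the Kcnh and Kcnq families and 6 of 13 potassium channel auxiliary genes. Summed over the 131 genes, covered sequence was 1318 ± 29.7 kb in naive cells, 1186 ± 70.0 kb in Th1 and 1496 ± 63.9 kb in the Th2 libraries (SD, n = 3). The covered length of the channel genes was therefore highest in Th2 cells, although the Th2 lists as a whole were shorter than the naive lists. A few very long genes carry that sum, as the covered length by family shows.

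**Figure D2:**
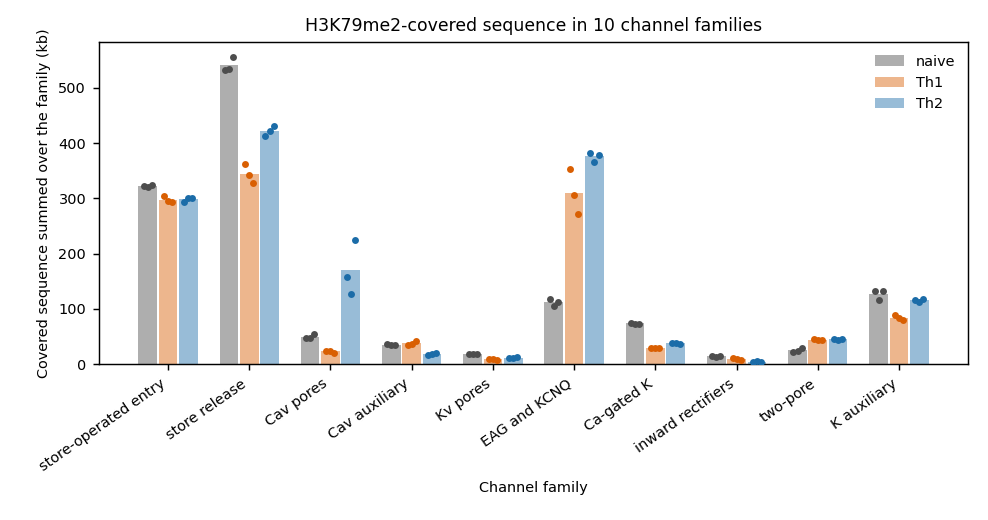
Covered sequence in kb summed over each of 10 channel families (bars, mean of 3 libraries; points, libraries). Store release genes lose covered length from 541 kb in naive to 344 kb in Th1 and 421 kb in Th2 libraries, while the Kcnh and Kcnq family goes from 112 kb to 310 and 376 kb.

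Kcna3, Kcnn4 and Orai1 were covered from end to end in all 9 libraries, so they had no variation to test. Kcna3 encodes the voltage-gated potassium channel of T cells, Kcnn4 the calcium-activated potassium channel, and Orai1 the pore of store-operated calcium entry. Kcna3 (chr3:107036162-107038129, + strand) is annotated over only 1.97 kb and lay within a domain of 29.0 ± 0.990 kb in naive cells, 24.8 ± 0.604 kb in Th1 and 33.1 ± 1.165 kb in Th2 libraries (SD, n = 3). Orai1 (chr5:123015074-123030452, + strand) lay within a domain of 22.25 to 27.1 kb in naive cells, 19.8 to 21.5 kb in Th1 and 21.9 to 23.03 kb in Th2 libraries, and each of those domains ran on into the neighbour Morn3. The domain over Kcnn4 (chr7:24369826-24385212, + strand) measured 27.5, 59.4 and 31.0 kb in the naive libraries, from 23.97 to 24.6 kb in Th1 and from 24.7 to 25.3 kb in Th2. The 59.4 kb domain of naive library 2 was the only one to take in the neighbour Smg9. By the fold enrichment that the authors deposited for each peak, the strongest peak on these genes ranked above 97.3% (Orai1), 97.65% (Kcna3) and 93.55% (Kcnn4) of the peaks of its own list in naive cells, as means of 3 libraries. In the Th1 lists the ranks were 99.1, 97.6 and 98.6%, and in the Th2 lists 99.4, 97.5 and 99.01%, in the same order.

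The promoters of these constantly marked genes are shown because 3 genes with the same coverage differ widely in CpG content. Each is the 250 bases before the start site, from the RefSeq promoter table on GRCm38.p6, read 5′ to 3′ on the gene's strand, with CpG dinucleotides in capitals. The start site of that table can lie inside the annotated gene, as it does for Kcnn4, whose window is part of the gene's own 100%. The first 5 kb of a gene are counted from that start site, and its 10 parts from the annotated 5′ end. Kcna3 has 31 CpG (chr3:107035912-107036161, + strand), Orai1 has 30 (chr5:123014824-123015073, + strand) and Kcnn4 has 6 (chr7:24370013-24370262, + strand).
Kcna3: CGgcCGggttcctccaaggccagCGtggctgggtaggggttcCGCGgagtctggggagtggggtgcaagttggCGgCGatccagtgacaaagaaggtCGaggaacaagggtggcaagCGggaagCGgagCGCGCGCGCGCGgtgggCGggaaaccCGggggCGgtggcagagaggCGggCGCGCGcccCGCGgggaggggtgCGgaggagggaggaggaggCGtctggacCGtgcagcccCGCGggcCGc
Orai1: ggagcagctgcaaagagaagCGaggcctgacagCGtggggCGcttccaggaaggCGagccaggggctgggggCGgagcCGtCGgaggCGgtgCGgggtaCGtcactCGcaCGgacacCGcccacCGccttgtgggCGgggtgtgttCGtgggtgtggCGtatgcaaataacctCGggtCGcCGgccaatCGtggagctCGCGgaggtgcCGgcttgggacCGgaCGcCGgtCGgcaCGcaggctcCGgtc
Kcnn4: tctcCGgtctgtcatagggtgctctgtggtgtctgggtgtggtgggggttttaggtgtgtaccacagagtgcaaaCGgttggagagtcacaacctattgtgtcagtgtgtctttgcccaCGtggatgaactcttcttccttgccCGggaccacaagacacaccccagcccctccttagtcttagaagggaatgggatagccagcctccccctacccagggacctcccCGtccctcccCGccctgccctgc
All 3 of these windows were covered by peaks from end to end in all 9 libraries. The table gave a promoter for 98 of the 131 genes. Over 17274 promoters of all genes the median was 10 CpG, with 15 for genes with a peak and 3 for genes without. Among the channel genes it was 14 for the 44 with a peak and 8 for the 54 without. The CpG counts of Kcna3 and Orai1 exceeded those of 93.7% and 92.8% of all promoters, and that of Kcnn4 exceeded those of 37.2%. The letters GGGCGG, searched on both strands and overlapping the CpG count by their own CG, were in 26 of 44 channel promoters with a peak (59.1%) and 27 of 54 without, against 57.4% and 24.5% of the promoters of all genes. TATAAA was in 3 of the 98 channel promoters (3.06%, against 12.5% of all), TGTGGT in 12 (12.2%, against 12.2%) and GGAAGT in 14 (14.3%, against 20.7%), each on either strand.

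Of the other genes of store-operated entry, Orai3, Stim1 and Stim2 were marked in every group, and Orai2 was marked in naive and Th2 cells but not in Th1. Orai2, a second Orai pore on chr5:136147456-136170697 (- strand), was covered over 85.1, 82.1 and 84.8% in naive cells, 55.2, 47.0 and 44.3% in Th1 and 52.7, 50.6 and 55.9% in Th2 libraries. All 6 polarised libraries were below all 3 naive ones. Orai2 fell by 35.1 points in Th1 (SE 2.95, adjusted p = 3.2e-05) and by 31.0 points in Th2 (SE 2.95, adjusted p = 6.8e-05). The loss lay in the body of the gene. With the gene split into 10 equal parts numbered from the 5′ end, parts 1 to 3 kept at least 95.8% on average in each group. Part 5 went from 84.6% in naive to 0 in Th1 and 13.04% in Th2, and over the first 5 kb the Th1 difference was -1.41 points (adjusted p = 0.092). With libraries centred to one mean, the Th2 difference was -23.2 points and no longer reached the 25 points needed for a call.

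Orai3, the third Orai pore, was at 75.7, 75.1 and 83.4% in naive cells, 100, 100 and 88.3% in Th1 and 83.2, 81.6 and 100% in Th2 libraries. The Th1 libraries were all above the naive ones, and the Th2 range overlapped the naive range. Orai3 was not called at 18.0 points in Th1 (SE 5.58, adjusted p = 0.024) or 10.2 points in Th2 (adjusted p = 0.15). At matched covered length, where peaks of lowest −log10 q were dropped from each list until it covered 217 Mb, the differences were 49.6 points (adjusted p = 0.00072) and 41.8 points (adjusted p = 0.0017), both past the threshold. Centring the libraries to one mean also brought the Th1 difference past it (26.3 points, adjusted p = 0.0013). Stim1, the main calcium sensor of the store, had 97.0 ± 0.975% of its 176 kb in naive cells, 85.5 ± 1.03% in Th1 and 88.6 ± 2.34% in the Th2 libraries (SD, n = 3). The differences of -11.5 and -8.46 points (adjusted p = 0.00017 and 0.0009) were under the minimum for a call and lay towards the 3′ end, where part 10 had 85.9% in naive cells, 39.0% in Th1 and 44.9% in Th2. Stim2, its partner sensor, stayed between 88.8 and 95.9% in all 9 libraries, and its differences had adjusted p from 0.052 to 0.23.

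Calls across the whole family used limma, with Benjamini-Hochberg adjustment over the 11600 genes that varied across libraries and with calls made at adjusted p under 0.05 where the groups differed by at least 25 points. Of the channel genes, 52 varied and were tested. In Th1 against naive cells 4 were higher (7.69% of those tested, against 4.38% of all genes) and 11 were lower (21.2%, against 16.3%), beside 20.7% of all genes in either direction. In Th2 against naive cells 4 were higher (7.69%, against 4.26%) and 10 were lower (19.2%, against 15.4%), beside 19.6% of all genes in either direction. In Th2 against Th1 cells 2 were higher (3.85%, against 2.08%) and 2 were lower (3.85%, against 1.56%), beside 3.64% of all genes in either direction. These shares lie near the background, and no reading of the family as a whole is drawn from them. The median differences were -0.972 points in Th1 and -0.653 in Th2 against naive, where all tested genes had -5.54 and -5.50, and 0.158 in Th2 against Th1, where all had 0.0181. Many of the tested channel genes were near 0 in every library, so their medians say little about the covered ones. Both comparisons with naive cells share the 3 naive libraries.

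**Figure D3:**
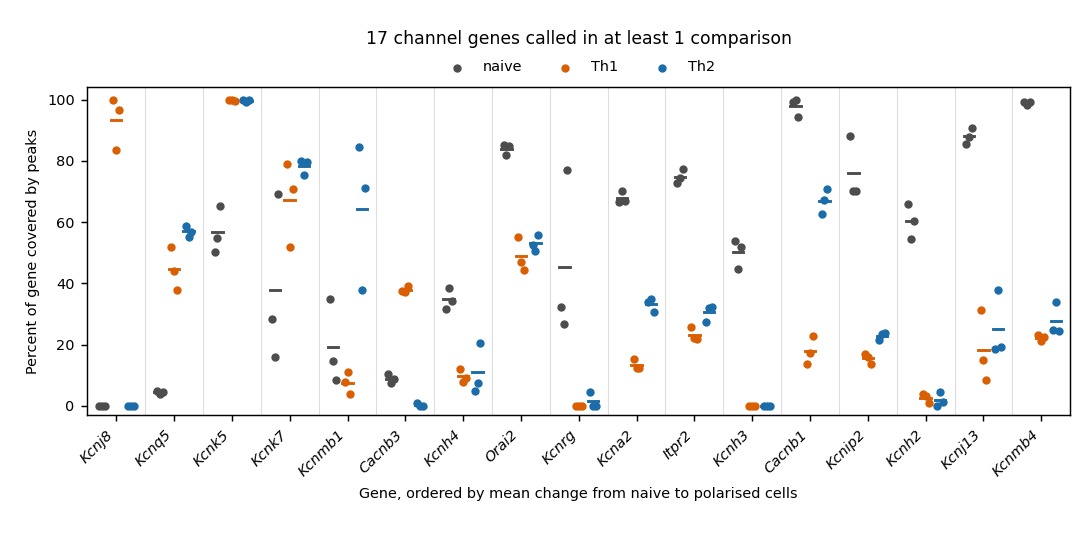
Percent of the gene covered in each of 9 libraries (points; short lines, means of 3) for the 17 channel genes called in at least 1 comparison, ordered by mean change from naive to polarised cells. Kcnj8 stands at 83.4 to 100% in Th1 libraries and at 0 elsewhere, while Kcnmb4 goes from over 98% in naive libraries to under 34% in all 6 polarised ones.

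Of the 6 release channel genes only Itpr2 was called, lower in Th1 and in Th2 than in naive cells. Itpr2, on chr6:146108299-146502258 (- strand), is an inositol trisphosphate receptor of 394 kb. It was covered over 72.7, 74.4 and 77.2% in naive cells, 25.6, 22.2 and 21.9% in Th1 and 27.4, 31.9 and 32.3% in Th2 libraries. All polarised libraries were below all naive ones, with no overlap. In length Itpr2 went from 294 ± 9.10 kb in naive to 91.5 ± 8.07 kb in Th1 and 120.3 ± 10.6 kb in the Th2 libraries (SD, n = 3). It fell by 51.5 points in Th1 (SE 2.10, adjusted p = 7.8e-07) and by 44.2 points in Th2 (SE 2.10, adjusted p = 2e-06). Its 5′ end kept the mark: parts 1 and 2 stayed at 89.5% or more on average in every group, while part 4 went from 46.0% to 0.926% in Th1 and 3.39% in Th2. At matched covered length the differences shrank to -13.1 and -10.3 points (adjusted p = 5e-05 and 0.00018), and with peaks of −log10 q of at least 5 alone to -19.02 and -16.7 points, all under the minimum for a call.

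Itpr1, the receptor gene on chr6:108213083-108551116, had 60.7, 59.9 and 61.2% in naive cells, 67.3, 65.4 and 62.0% in Th1 and 79.6, 77.0 and 78.8% in Th2 libraries. The Th2 libraries were the highest of all. Every Th1 library was above every naive one, but the Th1 difference of 4.29 points (adjusted p = 0.053) was not called. Covered length went from 205 ± 2.20 kb in naive to 265 ± 4.55 kb in Th2 cells. The Th2 difference from naive was 17.8 points (SE 1.63, adjusted p = 5.4e-05) and was not called at the minimum of 25. At matched covered length it was 30.9 points (adjusted p = 0.00013), and with libraries centred to one mean 25.5 points (adjusted p = 4.5e-06), both past the threshold. The Th2 difference from Th1 was 13.5 points (adjusted p = 0.0014). The strand of this gene is not in the tables used here, so no 5′ end was assigned. Itpr3, the receptor gene of 65.2 kb, had 62.2 ± 3.83% in naive cells, 47.1 ± 0.306% in Th1 and 46.0 ± 0.864% in the Th2 libraries (SD, n = 3), and its differences of -15.1 and -16.2 points were under the minimum for a call. Its parts 1 to 4 stayed above 90% in every group. Of the ryanodine receptors, which release calcium in muscle and neurons, Ryr1 reached 4.80 ± 0.814% in Th2, and Ryr2 and Ryr3 stayed under 0.06% in all libraries.

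**Figure D4:**
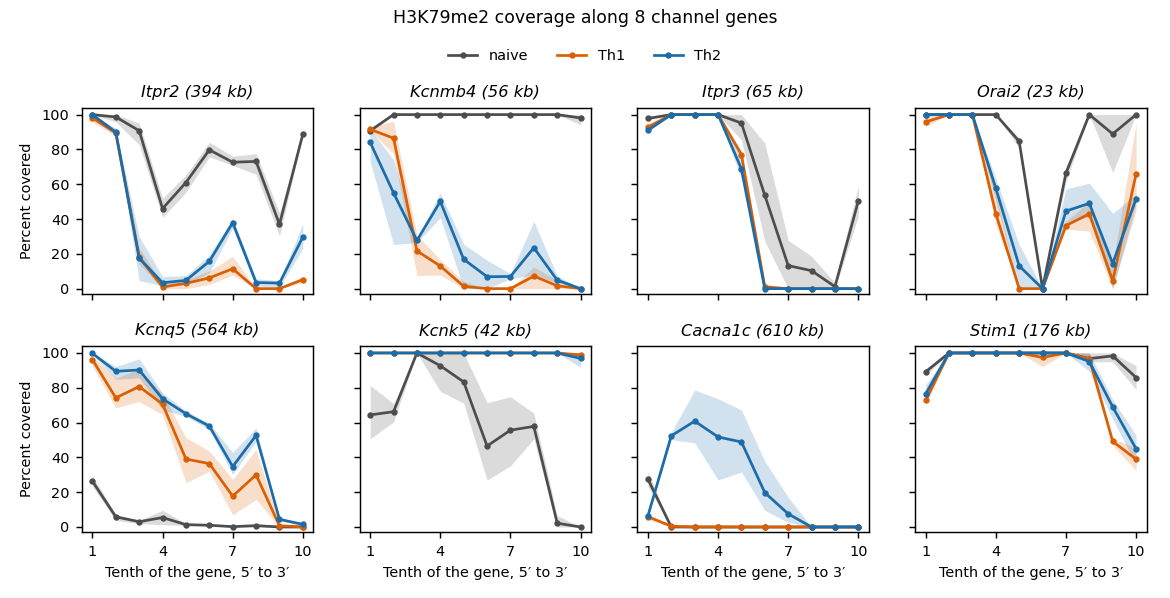
Percent covered in each of 10 equal parts of 8 channel genes from the 5′ end to the 3′ end (lines, means of 3 libraries; bands, lowest to highest library). Itpr2 and Kcnmb4 keep coverage in part 1 and lose most of it further along in Th1 and Th2, and Kcnq5 has a domain in Th1 and Th2 that thins towards the 3′ end.

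Kcnq5 had the longest gain. It encodes a voltage-gated potassium channel of the Kcnq family, known from neurons and smooth muscle, and spans 564 kb (chr1:21398399-21962650, - strand). It was covered over 4.85, 3.70 and 4.64% in naive cells, 51.9, 43.9 and 37.8% in Th1 and 58.8, 55.1 and 56.9% in Th2 libraries. Naive and polarised libraries did not overlap, and neither did Th1 and Th2. Covered length went from 24.8 ± 3.46 kb in naive to 251 ± 39.9 kb in Th1 and 321 ± 10.4 kb in the Th2 libraries (SD, n = 3). Kcnq5 rose by 40.2 points in Th1 (SE 3.29, adjusted p = 2.8e-05) and by 52.5 points in Th2 (SE 3.29, adjusted p = 7.9e-06), and the Th2 difference from Th1 was 12.4 points (adjusted p = 0.043, not called). The domain was densest at the 5′ end, with 96.1% of part 1 in Th1 and 99.8% in Th2, and reached 0.748 and 4.42% in part 9. It came in many pieces, 77 to 94 in Th1 and 67 to 91 in Th2 libraries, and its strongest peak ranked above 83.3 and 85.7% of the peaks of its list. With peaks of −log10 q of at least 5 alone, the differences were 15.5 points in Th1 and 14.6 points in Th2 (adjusted p = 0.035 and 0.042), which ended the call. Its nearest coding neighbours, Khdc1b and Rims1, were at 0 in all groups.

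Kcnk5 gained coverage over its whole length. It encodes a tandem-pore background potassium channel and lies on chr14:20140057-20181782 (- strand). The naive libraries had 50.4, 54.9 and 65.3%, the Th1 libraries 100, 100 and 99.7% and the Th2 libraries 100, 99.2 and 99.9%. Every polarised library was essentially full and above every naive one. The gene rose by 43.0 points in Th1 (SE 3.33, adjusted p = 2.1e-05) and by 42.8 points in Th2 (SE 3.33, adjusted p = 2.4e-05). The naive coverage was in 6.67 pieces on average, whose strongest ranked above 65.0% of the peaks of its list, and the polarised coverage was in 1 domain of 43.2 kb in Th1 and 47.0 kb in Th2. That domain ranked above 99.3% of the Th1 peaks and 99.97% of the Th2 peaks. At matched covered length the differences were 99.9 and 99.7 points (both called). Its neighbour Kcnk16, at 79.6 kb, was at 0 in all groups, and Saysd1 on the other side, at 56.9 kb, was at 92.3 to 96.1% on average in each.

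Kcnj8 was covered in Th1 cells alone. It encodes an inwardly rectifying potassium channel that pairs with the sulfonylurea receptor Abcc9 in blood vessels and heart, and lies on chr6:142564837-142571614 (- strand). Its Th1 libraries had 100, 83.4 and 96.7%, and all naive and Th2 libraries were at 0. It was called higher in Th1 than in naive cells by 93.4 points (SE 3.84, adjusted p = 8.2e-07) and lower in Th2 than in Th1 by the same size (adjusted p = 6.1e-06). The domain was 10.4, 5.40 and 8.37 kb long. Its strongest peak ranked above 68.9% of the peaks of its list on average, and with peaks of −log10 q of at least 5 alone the Th1 difference from naive was 13.4 points (adjusted p = 0.31). Abcc9, its neighbour at 16.2 kb, was at 0 in all groups.

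The promoters of these genes that gained coverage are shown for comparison with those of the constantly marked genes. They are the 250 bases before the start site in the same table and in the same form, with CpG in capitals. Kcnk5 has 19 CpG (chr14:20181783-20182032, - strand) and Kcnj8 has 6 (chr6:142571615-142571864, - strand).
Kcnk5: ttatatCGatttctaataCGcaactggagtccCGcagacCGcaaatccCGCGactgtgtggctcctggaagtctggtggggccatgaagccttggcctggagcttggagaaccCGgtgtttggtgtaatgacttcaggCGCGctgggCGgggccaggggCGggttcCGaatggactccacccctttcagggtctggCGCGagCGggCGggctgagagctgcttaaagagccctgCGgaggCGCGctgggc
Kcnj8: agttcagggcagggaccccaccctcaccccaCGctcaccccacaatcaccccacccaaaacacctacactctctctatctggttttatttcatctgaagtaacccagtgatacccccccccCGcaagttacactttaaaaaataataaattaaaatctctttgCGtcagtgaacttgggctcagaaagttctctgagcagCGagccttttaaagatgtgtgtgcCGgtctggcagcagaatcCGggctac
The Kcnk5 start site lay under a peak in 0 naive, 3 Th1 and 3 Th2 libraries. The Kcnj8 start site lay under one in 1 Th1 library and in no naive or Th2 library. The Kcnk5 window holds GGGCGG and GGAAGT, and the Kcnj8 window holds none of the 4 motifs searched.

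Beta subunits of voltage-gated calcium channels, which bring the pores to the membrane, differed from one another. Cacnb1 (chr11:98001508-98023034, - strand) had 99.2, 99.8 and 94.4% in naive cells, 13.7, 17.1 and 22.8% in Th1 and 62.6, 67.1 and 70.7% in Th2 libraries. The 3 groups did not overlap. Cacnb1 fell by 79.9 points in Th1 (SE 3.08, adjusted p = 6e-07) and by 31.0 points in Th2 (SE 3.08, adjusted p = 8.2e-05), and was higher in Th2 than in Th1 by 48.9 points (SE 3.08, adjusted p = 5.3e-05). Coverage in Th1 was kept in part 1 (100%) and part 2 (66.0%) and was at most 7.02% on average in parts 3 to 10. A stretch at the 5′ end of the gene overlaps the coding gene Rpl19, which held 27.97% of the covered sequence in Th1 on average. In naive cells it held 4.90%. The coverage kept at the 5′ end in Th1 therefore cannot be assigned to Cacnb1 alone. Outside Rpl19, Cacnb1 was covered over 97.7% in naive cells, 13.8% in Th1 and 65.1% in Th2. Centring the libraries to one mean took the Th2 difference from naive to -23.3 points, under the minimum.

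Cacnb3 (chr15:98628436-98644536, + strand) went the other way in Th1. It had 10.3, 7.48 and 8.79% in naive cells, 37.5, 37.0 and 39.2% in Th1 and 1.05, 0 and 0% in Th2 libraries. The Th1 libraries stood above all others. It rose by 29.1 points in Th1 against naive (SE 0.962, adjusted p = 2.7e-07) and was lower in Th2 than in Th1 by 37.6 points (adjusted p = 4.5e-07). The Th1 coverage was internal, at 92.2% in part 5 and 100% in part 6 and at 0 in parts 9 and 10. Cacnb2 and Cacnb4 had their coverage in Th1 too, at 4.54 ± 1.17% and 3.20 ± 0.842% of genes of 385 and 248 kb (SD, n = 3), against at most 0.181% on average in the other groups. Neither was called over its whole length. Over the first 5 kb, Cacnb2 was 74.3 points higher in Th1 than in naive (adjusted p = 0.00012) and lower by the same size in Th2 than in Th1 (adjusted p = 0.00056).

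Cacna1c, the pore of an L-type calcium channel best known from heart and smooth muscle, had coverage inside the gene in Th2 cells. It spans 610.1 kb on chr6:118587240-119197384 (- strand). It was covered over 2.75, 2.33 and 3.16% in naive cells, 0.788, 0.682 and 0.448% in Th1 and 22.8, 17.8 and 33.6% in Th2 libraries. All Th2 libraries were above all others, and they differed among themselves, with 139, 109 and 205 kb. The Th2 differences were 22.0 points from naive (SE 3.43, adjusted p = 0.00092) and 24.1 points from Th1 (adjusted p = 0.0032), both just under the minimum of 25. Leaving out Th2 replicate 2 gave 25.5 and 27.6 points, leaving out Th2 replicate 1 gave 25.1 points from Th1, and centring gave 29.7 points from naive, all past it. The Th2 coverage came in 59 peaks on average, in parts 2 to 7, with 52.4% of part 2 and 60.8% of part 3, and part 1 had 6.38%. In naive cells 100% of the covered sequence lay where Cacna1c overlaps the coding gene Dcp1b, and in Th1 94.03% did, but in Th2 2.73% did. Its promoter window lies inside the annotated gene and was covered in all 3 naive libraries and in none of Th1 or Th2. That naive coverage lay within Dcp1b too, so it cannot be assigned to Cacna1c. Cacna1d, another L-type pore, had 3.83% in naive and 2.56 and 2.63% in Th1 and Th2 cells, of which 67.6, 96.9 and 96.2% lay within the overlapping genes Chdh and Dcp1a. Cacna1f, an L-type pore studied in T cells, had no peak in any library, and neither did the tandem-pore channel Kcnk18. Cacna2d4, an auxiliary subunit next to Cacna1c, had 10.3 ± 0.709% in naive cells, 0.650 ± 0.624% in Th1 and 1.27 ± 0.750% in the Th2 libraries (SD, n = 3).

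Several potassium channel genes lost their domain. Kcnmb4, a beta subunit of the large-conductance calcium-activated potassium channel (chr10:116417861-116473859, - strand), had 99.1, 98.4 and 99.1% in naive cells, 23.1, 21.1 and 22.6% in Th1 and 24.6, 33.8 and 24.3% in Th2 libraries. The gap between naive and polarised libraries was wide. Its 55.4 ± 0.233 kb in naive cells became 12.5 ± 0.581 kb in Th1 and 15.5 ± 3.02 kb in Th2 (SD, n = 3). Kcnmb4 fell by 76.6 points in Th1 (SE 2.62, adjusted p = 3.2e-07) and by 71.3 points in Th2 (SE 2.62, adjusted p = 5.3e-07). The annotated 5′ end had high coverage in each group, and part 1 had 90.7% in naive cells, 91.6% in Th1 and 84.1% in Th2. Over the first 5 kb the Th1 difference was 0.933 points (adjusted p = 0.95) and the Th2 difference -7.45 points (adjusted p = 0.27). Its promoter, shown because it has more CpG (43) than 99.2% of all promoters and no peak over the table's start site in any library, lies on chr10:116473524-116473773 (- strand). That window lies inside the annotated gene, so the start site is downstream of the 5′ end from which part 1 is counted. CpG are in capitals as before.
Kcnmb4: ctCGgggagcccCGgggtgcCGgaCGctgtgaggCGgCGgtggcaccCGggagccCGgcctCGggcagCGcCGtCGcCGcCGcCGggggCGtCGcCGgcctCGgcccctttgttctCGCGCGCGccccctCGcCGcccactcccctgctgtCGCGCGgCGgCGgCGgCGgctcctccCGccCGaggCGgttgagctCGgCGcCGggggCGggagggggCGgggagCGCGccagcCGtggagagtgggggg
The pore that this subunit joins, Kcnma1, had no peak in any library.

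Kcna2, the neighbour of Kcna3 on chr3:107090883-107115005 (+ strand), encodes a voltage-gated potassium channel of neurons. It had 66.5, 70.3 and 67.0% in naive cells, 15.2, 12.2 and 12.4% in Th1 and 34.0, 34.8 and 30.6% in Th2 libraries. The 3 groups did not overlap. It fell by 54.6 points in Th1 (SE 1.86, adjusted p = 3.1e-07) and by 34.8 points in Th2 (SE 1.86, adjusted p = 3.5e-06). The Th2 difference from Th1 was 19.8 points (adjusted p = 0.00041), under the minimum. The differences from naive at matched covered length were -20.6 and -3.01 points, which ended both calls. With peaks of −log10 q of at least 5 alone, the Th2 difference from naive lost its call (-19.5 points, adjusted p = 0.053) and that from Th1 gained one (30.6 points, adjusted p = 0.048). Coverage in polarised cells lay in the first parts of the annotated gene, and was 0 in parts 5 to 10 in both Th1 and Th2. Part 1 had at least 98.7% in each group. Of the covered sequence, 62.4% for Th1 and 25.3% for Th2 lay within other annotated genes that are not coding, Gm38712 among them. The naive share was 12.3%. Coverage in that overlap cannot be assigned to Kcna2. Outside it, Kcna2 was covered over 5.53% for Th1 and 27.04% for Th2, against 64.97% for the naive libraries. The start site in the promoter table lies inside the gene, after the window chr3:107101317-107101566, and was under a peak in naive libraries alone. Kcna3, 52.7 kb away, stayed at 100%, and Kcna10 on the other side was at 0.

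Kcnh2, Kcnh3 and Kcnh4, for voltage-gated potassium channels of the ether-a-go-go family, were covered mainly in naive cells. Kcnh1, Kcnh5, Kcnh7 and Kcnh8 had no peak in any library, and Kcnh6 had at most 2.01%. Kcnh2 (chr5:24319589-24351684, - strand), the channel that repolarises heart muscle, had 65.9, 54.4 and 60.3% in naive cells, 3.93, 3.05 and 0.938% in Th1 and 0, 4.41 and 1.34% in Th2 libraries. It fell by 57.6 points in Th1 (SE 2.78, adjusted p = 1.9e-06) and by 58.3 points in Th2 (adjusted p = 2e-06). Of its covered sequence in naive cells, 36.9% lay within other annotated genes that are not coding and cannot be assigned to Kcnh2. Outside them, Kcnh2 was covered over 94.2% in naive cells, 6.57% in Th1 and 4.78% in Th2. Kcnh3 had 54.0, 44.8 and 51.9% in naive libraries and 0 in all 6 polarised ones. It overlaps another coding gene, but 0% of its naive coverage lay in that overlap. It fell by 50.2 points in both (SE 2.12, adjusted p = 9.3e-07 and 1.1e-06), and at matched covered length by 26.8 points (adjusted p = 0.096), which ended the calls. Kcnh4 had 31.5, 38.5 and 34.2% in naive cells, 11.9, 7.87 and 8.94% in Th1 and 4.79, 7.48 and 20.4% in Th2 libraries. It was called lower in Th1 at -25.2 points (SE 3.98, adjusted p = 0.00096) and not in Th2 at -23.9 points (adjusted p = 0.0013). Both values lie at the minimum: without naive replicate 2, Th1 replicate 2 or Th1 replicate 3 the Th1 call was lost (-23.3, -24.3 and -24.8 points), and without naive replicate 1 or Th2 replicate 3 the Th2 difference passed (-25.4 and -28.6 points). Matched covered length likewise ended the Th1 call (-23 points, adjusted p = 3.6e-05) and added a Th2 call (-27.6 points, adjusted p = 1.4e-05). In the naive libraries its longest domain, 48.0 kb on average, ran on over Dhx58, Kat2a, Hspb9 and Rab5c. Kcnq1, a pore of heart and epithelia, had 16.1, 16.7 and 16.1% in naive, Th1 and Th2 cells and was not called. That coverage was about 1 block in the middle of the gene, of which 95.8, 97.2 and 96.1% lay within other annotated genes that are not coding, Kcnq1ot1 among them.

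Auxiliary subunits of potassium channels were split. Kcnab2, a beta subunit of Kv channels that overlaps Nphp4, stayed marked at 75.2 ± 3.09% in naive cells, 62.4 ± 0.545% in Th1 and 59.1 ± 1.76% in the Th2 libraries (SD, n = 3), with differences of -12.8 and -16.1 points that were not called. Kcnip2, a calcium-binding partner of Kv channels, had 88.2, 70.1 and 70.1% in naive cells, 17.1, 15.8 and 13.7% in Th1 and 21.5, 23.6 and 23.6% in Th2 libraries. It fell by 60.6 points in Th1 (SE 4.65, adjusted p = 2e-05) and by 53.2 points in Th2 (SE 4.65, adjusted p = 4.3e-05). The adjusted p at matched covered length were 0.056 and 0.053, which ended the calls. In naive libraries 1 and 2 its domain also held Npm3 and Oga, and Oga was at 100% in every group. Kcnip1, of 364 kb, had 8.92 ± 1.41% in naive cells, 4.25 ± 0.920% in Th1 and 13.1 ± 1.26% in Th2 cells.

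Coverage in a stretch shared with another gene cannot be assigned to either gene. Kcnj13, an inward rectifier, lies wholly within the coding gene Gigyf2, and had 85.7, 87.6 and 90.6% in naive cells, 31.2, 14.9 and 8.58% in Th1 and 18.6, 37.8 and 19.05% in Th2 libraries. It was called lower in both (-69.7 and -62.8 points, adjusted p = 8.1e-05 and 0.00015), but at matched covered length the differences were -0.200 and -6.87 points. Kcnrg, a regulator of potassium channel assembly that overlaps Trim13, had 32.3, 26.6 and 76.9% in naive cells, 0 in all Th1 and 4.61, 0 and 0% in Th2 libraries. It was called lower in both (-45.3 and -43.7 points, adjusted p = 0.011 and 0.013), and all of its covered sequence lay within other annotated genes. Kcnmb1, a beta subunit that lies wholly within Kcnip1, had 34.8, 14.5 and 8.55% in naive cells, 7.78, 11.1 and 3.73% in Th1 and 84.6, 37.7 and 71.0% in Th2 libraries. The Th2 libraries were above all others. It was called higher in Th2 than in naive by 45.1 points (SE 11.9, adjusted p = 0.012) and than in Th1 by 56.9 points (adjusted p = 0.017). Without Th1 replicate 3 or Th2 replicate 3 the call against Th1 was lost (adjusted p = 0.055 and 0.056), and at matched covered length neither difference was called (adjusted p = 0.31 against naive and 0.50 against Th1). Kcnk7, a tandem-pore gene that overlaps Ehbp1l1, had 28.3, 15.8 and 69.3% in naive cells, 78.9, 51.9 and 70.7% in Th1 and 79.9, 75.3 and 79.5% in Th2 libraries. It was called higher in Th2 (40.4 points, SE 13.3, adjusted p = 0.032). That call was lost in 5 of the 9 fits that left out 1 library: without naive replicate 1 or 2 or any 1 of the Th2 replicates, with adjusted p from 0.064 to 0.095. In Th1 the difference from naive was 29.4 points (adjusted p = 0.094), and without naive replicate 3 it was 45.1 points and called (adjusted p = 0.0032).

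Of the 11 Th1 losses, 4 remained at matched covered length (Cacnb1, Kcnh2, Kcnmb4 and Orai2), and all 4 Th1 gains remained with Orai3 added. The 4 losses were 9.52% of the 42 channel genes tested there, against 9.57% of all genes. The same 4 genes remained of the 10 Th2 losses, with Kcnh4 added (11.9%, against 10.2% of all genes). Of the 4 Th2 gains Kcnk5, Kcnk7 and Kcnq5 remained, with Itpr1 and Orai3 added. Kcnrg had the same value in all libraries there and could not be tested. With overlapping genes left out, 7 of the 11 Th1 losses remained (17.1% of those tested, against 16.1% of all genes) and 6 of the 10 Th2 losses (14.6%, against 15.1%).

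The genes that act with these channels were taken from a list of 58 (calcium pumps and exchangers, mitochondrial uptake, calmodulin kinases, calcineurin and NFAT, phospholipase C and purinergic or Trp channels), of which 49 were tested. In Th1 against naive cells 2 rose, Atp2b4 and Mcub (4.08%, against 4.38% of all genes), and 12 fell (24.5%, against 16.3%). In Th2 against naive cells the same 2 rose (4.08%, against 4.26%) and 9 fell (18.4%, against 15.4%). In Th2 against Th1, Mcub alone was called, higher in Th2 (2.04%, against 2.08%). The medians were -7.01, -6.46 and 0 points, beside -5.54, -5.50 and 0.0181 for all tested genes. Atp2b4, a pump that carries calcium out of the cell, had 0.0861 ± 0.149% in naive cells, 66.8 ± 3.67% in Th1 and 61.1 ± 0.234% in the Th2 libraries (SD, n = 3). It rose by 66.7 points in Th1 (SE 1.95, adjusted p = 1.5e-07) and by 61.0 points in Th2 (adjusted p = 2.6e-07). Mcub, which dampens calcium uptake into mitochondria, had 14.3 ± 3.15% in naive cells, 55.9 ± 4.35% in Th1 and 85.6 ± 2.62% in Th2 cells, and its difference of 29.6 points between Th2 and Th1 was called (SE 2.80, adjusted p = 0.00042). Of those that fell, Atp1b1, a subunit of the sodium-potassium pump that overlaps Nme7, had 88.6 ± 2.06% in naive cells, 2.75 ± 0.833% in Th1 and 22.2 ± 3.84% in Th2 cells. Cabin1, an inhibitor of calcineurin, had 73.1 ± 3.77, 31.0 ± 3.97 and 24.9 ± 2.06% in the same order. Camk1d, a calmodulin kinase, fell by 44.9 points in Th1 (SE 2.27, adjusted p = 2.4e-06). Trpv2, a cation channel, was at 100% in all naive libraries and fell by 51.1 points in Th2 (SE 4.80, adjusted p = 6.3e-05). In all, 24 of the 58 had at least 50% in all 9 libraries and 9 had no peak in any.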

How the data were processed

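The analysis used 9 broad peak lists, 1 for each H3K79me2 library. Per the submitters' processing notes the tools were Bowtie2, Picard, SAMtools and MACS2, on mm10. Their versions and settings, and whether inputs entered peak calling, are not given in the sources used here. With every peak the authors deposited a score for display, its fold enrichment as a ratio, and its −log10 p and −log10 q. These served to rank or filter peaks inside 1 list. The lists hold no read counts, so the depth is unknown and intervals for counting error were not computed.

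Peaks of each list were merged and laid over genes of the RefSeq table (GRCm38.p6, 1-based coordinates). Of the 21631 genes, 3841 overlap another coding gene, as do 16 of the channel genes, and broad peaks cannot be assigned to either. Strand and start sites came from the RefSeq promoter table, which held 98 of the 131. Percent covered was fitted with limma 3.58.1 in R 4.3.3 (lmFit and eBayes with a variance trend) over all 9 libraries, with 6 residual degrees of freedom, Benjamini-Hochberg adjustment over 11600 genes, and calls at adjusted p under 0.05 and at least 25 points. Percent covered saturates at 0 and 100. Genes without spread within groups owe their p-values to the variance borrowed from other genes. The fit was tested on simulated data. Tables were made with Python 3.11.15, numpy 2.4.6 and pandas 2.3.3.

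The channel genes, the pathway list and the markers were chosen with earlier results of these data known. Named genes were all called or marked members, genes with a known or proposed part in T cells, genes with at least 20 kb covered on average in a group, and the 3 largest called gains and losses of the pathway list in each comparison. Same-numbered libraries did not deviate together (r from -0.0745 to 0.00147). Libraries that share a mouse or a culture need not deviate together, so this does not settle whether the numbers pair libraries. Alternatives were peaks with −log10 q of at least 5, lists trimmed by −log10 q to 217 Mb, the first 5 kb of a gene, 2 kb added at each end, an arcsine scale, centred libraries, no filter, no overlapping genes, a replicate block, other minimum differences and leaving out each library.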

Additional observations from a re-analysis of the deposited data

How the results depend on the processing

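The settings tested different numbers of members, and shares of all genes tested are given in brackets. Members lower in Th1 than naive cells numbered 11 of 52 as reported and 4 of 42 at matched covered length (9.52%, against 9.57%). With peaks of −log10 q of at least 5 they numbered 7 of 33 (21.2%, against 17.3%). Without overlapping genes they numbered 7 of 41 (17.1%, against 16.1%), and over the first 5 kb 7 of 25 (28%, against 15.4%). With no minimum difference they numbered 21. Members lower in Th2 than naive (10 as reported) numbered 5 (11.9%, against 10.2%), 7 (21.2%, against 17.4%), 6 (14.6%, against 15.1%), 4 (16%, against 13.2%) and 22 under the same settings. Members higher in Th1 than naive (4) numbered 9 with no minimum difference. Members higher in Th2 than naive (4) numbered 1 with stronger peaks (3.03%, against 4.23%) and 2 without overlapping genes (4.88%, against 4.45%). With no minimum difference they numbered 9. For Th2 against Th1, the 2 higher members became 1 at matched length (2.38%, against 1.55%) and 1 with no filter (0.763%, against 0.98%). They became 0 without overlapping genes (against 2.08%), 6 with a minimum of 10 points and 8 with none. Cacnb1 and Kcnmb1 both overlap another gene and left the fit without overlapping genes, where 2 members were lower (4.88%, against 1.75%). The 2 lower became 1 with stronger peaks (3.03%, against 1.75%) and 6 with no minimum. Shares of all genes were not computed for the other minimum differences. Leaving out 1 library gave 4 to 5 and 10 to 11 members for Th1 against naive, 3 to 4 and 10 to 12 for Th2 against naive, 1 to 3 higher and 2 lower for Th2 against Th1, and 18 to 19, 11 and 13 to 14 marked members in naive, Th1 and Th2. Marked members in naive cells (19) numbered 12 at matched length and 44 when any overlap counts; in Th1 (11) 19 over the first 5 kb and 43; in Th2 (14) 8 with stronger peaks and 40. Differences reversed for Kcnmb4 in Th1 over the first 5 kb (0.933 points, adjusted p = 0.95) and for Kcnk7 in Th2 with stronger peaks (-23.1 points, adjusted p = 0.50). The cause was not tested. With libraries centred to one mean the median of all tested genes was 2.70 points in Th1 and 2.19 in Th2, and 38.5 and 39.8% of all called genes were higher, against 21.1 and 21.7% as reported. With the replicate number as a block, the members called were the same 4 and 11, 4 and 10, and 2 and 2. The block thus changed no call of a member, and whether the numbers pair the libraries is unknown.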
